A study of Mus musculus with 2 samples.

Results

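The Prader-Willi and Angelman imprinted domain of the mouse lies on chromosome 7. It was taken here as the windows of the allele-specific ATAC-seq table between 58000001 and 63000000 on chromosome 7 (mm10, 1-based), and it holds 90 of the table's 43941 windows of 50 kb. The 8 genes Atp10a, Ube3a, Snurf, Snrpn, Ndn, Magel2, Mkrn3 and Peg12 were placed in these windows by their RefSeq positions. The cells were F121-6, a female hybrid embryonic stem cell line with 1 chromosome set from 129 and 1 from castaneus (CAS) mice, grown with LIF and serum on mitomycin-C-inactivated embryonic fibroblasts. ATAC-seq, which reads accessible DNA through transposase insertions, was run on 200000 cells per library with 100 bp paired-end reads. There was 1 group of 2 replicates, so the comparison made was between the alleles. Each library holds both alleles, but the main fits did not pair them by library. The line is a single hybrid line, the labels do not say which strain was the mother, and paternal and maternal copies were therefore not assigned.

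In an imprinted domain the copies from mother and father differ in DNA methylation and activity. Here the control element lies at the start of Snurf and Snrpn, where the maternal copy is methylated and the paternal copy is open and transcribed. The paternal copy expresses Snurf, Snrpn, Ndn, Magel2, Mkrn3, Peg12 and a long transcript, Snhg14, that carries arrays of small nucleolar RNAs and runs antisense into Ube3a. Silencing of paternal Ube3a is known from neurons, while most other cells use both copies. All of this is background and was not measured in this table.

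The start regions of the genes carry the sequences that a reader needs to place the counts. For 3 of them the 250 bases before the RefSeq start (GRCm38.p6) are shown with CpG dinucleotides, the sites of DNA methylation, in capitals. They were chosen as the start in the window with the highest count, the start of Ube3a, and the first start of the Ndn cluster.
Snurf and Snrpn, minus strand, chr7:60005200-60005449: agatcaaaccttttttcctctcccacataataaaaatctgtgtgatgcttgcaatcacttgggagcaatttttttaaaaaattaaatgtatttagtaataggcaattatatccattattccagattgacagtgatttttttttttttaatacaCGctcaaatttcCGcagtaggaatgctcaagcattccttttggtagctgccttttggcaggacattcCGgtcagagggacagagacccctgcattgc
Ube3a, plus strand, chr7:59228500-59228749: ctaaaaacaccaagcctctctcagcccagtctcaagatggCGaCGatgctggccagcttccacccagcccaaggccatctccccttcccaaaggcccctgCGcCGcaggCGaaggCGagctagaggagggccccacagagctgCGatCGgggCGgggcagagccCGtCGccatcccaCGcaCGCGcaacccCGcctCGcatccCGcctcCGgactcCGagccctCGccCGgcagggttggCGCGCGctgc
Ndn, plus strand, chr7:62348027-62348276: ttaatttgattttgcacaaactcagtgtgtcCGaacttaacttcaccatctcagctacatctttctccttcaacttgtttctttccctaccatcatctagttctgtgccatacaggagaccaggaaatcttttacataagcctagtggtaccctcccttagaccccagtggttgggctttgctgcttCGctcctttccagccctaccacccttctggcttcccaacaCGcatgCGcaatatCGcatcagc

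The Ube3a stretch held 24 CpGs, more than 88.0% of 32817 RefSeq starts, and had a GC content of 70.0%. The Snurf and Snrpn stretch held 3 CpGs and the Ndn stretch 5, against a median of 6 over all starts. Magel2 had 7, Peg12 8, Mkrn3 10 and Atp10a 14. In these 250 bases the main starts of the paternally expressed genes thus held 3 to 10 CpGs, below Atp10a and Ube3a. With the 50 bases after the start included, Snurf and Snrpn had 7, Magel2 10, Ndn 11, Peg12 12, Mkrn3 15, Atp10a 20 and Ube3a 29. CpGs further into the genes were not counted, so these numbers do not describe the control element as a whole.

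RefSeq lists 3 further Snrpn starts upstream, at 60047978, 60140225 and 60450177. Their 300-base start regions were 79.7% to 81.1% identical to each other in a global alignment and 47.3% to 50.2% identical to the region at 60005199. The letters CGCATGCG, which read the same on both strands and form part of the binding motif of the transcription factor NRF1, occurred in all 4 Snrpn start regions and in that of Ndn. They were found by looking at these sequences, and 1.86% of all start regions of this length held them. The 30 bases around each match are shown with the match in capitals, because these 8 letters are common to all 5 start regions, while the bases beside them are alike in the 3 upstream Snrpn starts.
Snrpn start at 60450177, minus strand, chr7:60450222-60450251: gcaaacatccaCGCATGCGtgattggaagg
Snrpn start at 60140225, minus strand, chr7:60140285-60140314: gcaaacatccaCGCATGCGtgatgggaggg
Snrpn start at 60047978, minus strand, chr7:60048031-60048060: gcaaacatgcaCGCATGCGtcgttgaaggt
Snurf and Snrpn start at 60005199, minus strand, chr7:60005150-60005179: cagccattgcctgggaCGCATGCGtaggga
Ndn start at 62348277, plus strand, chr7:62348243-62348272: gcttcccaacaCGCATGCGcaatatcgcat
The match began 63, 78 and 71 bases before the 3 upstream starts, 23 bases before that of Ndn, and at base 37 after the Snurf and Snrpn start. A match is a description of letters and no evidence of binding.

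The table's counts are small, with column means from 1.00 to 1.37 per window. Defining genes of embryonic stem cells had a median of 20.6 counts per window over the 4 columns (8 of 8 with a count, range 7 to 41.5). Fibroblast genes, which the feeder cells express, had a median of 3.5 (7 of 8 with a count, range 0 to 8.5) and neuron genes 7.5 (7 of 7, range 1.9 to 18), against 6 for all coding genes. Higher on 129 in both replicates were 3 fibroblast, 2 stem cell and 1 neuron genes, and higher on CAS 0, 1 and 2, against 14.5% (129) and 15.4% (CAS) of all coding genes with a count. The 3 fibroblast genes had at most 4 counts in a column, and Postn was at 0. The part of feeder DNA in the counts of the domain was not tested. In bulk counts, fewer cells with an open site and a less open site in every cell cannot be told apart.

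**Figure D1:**
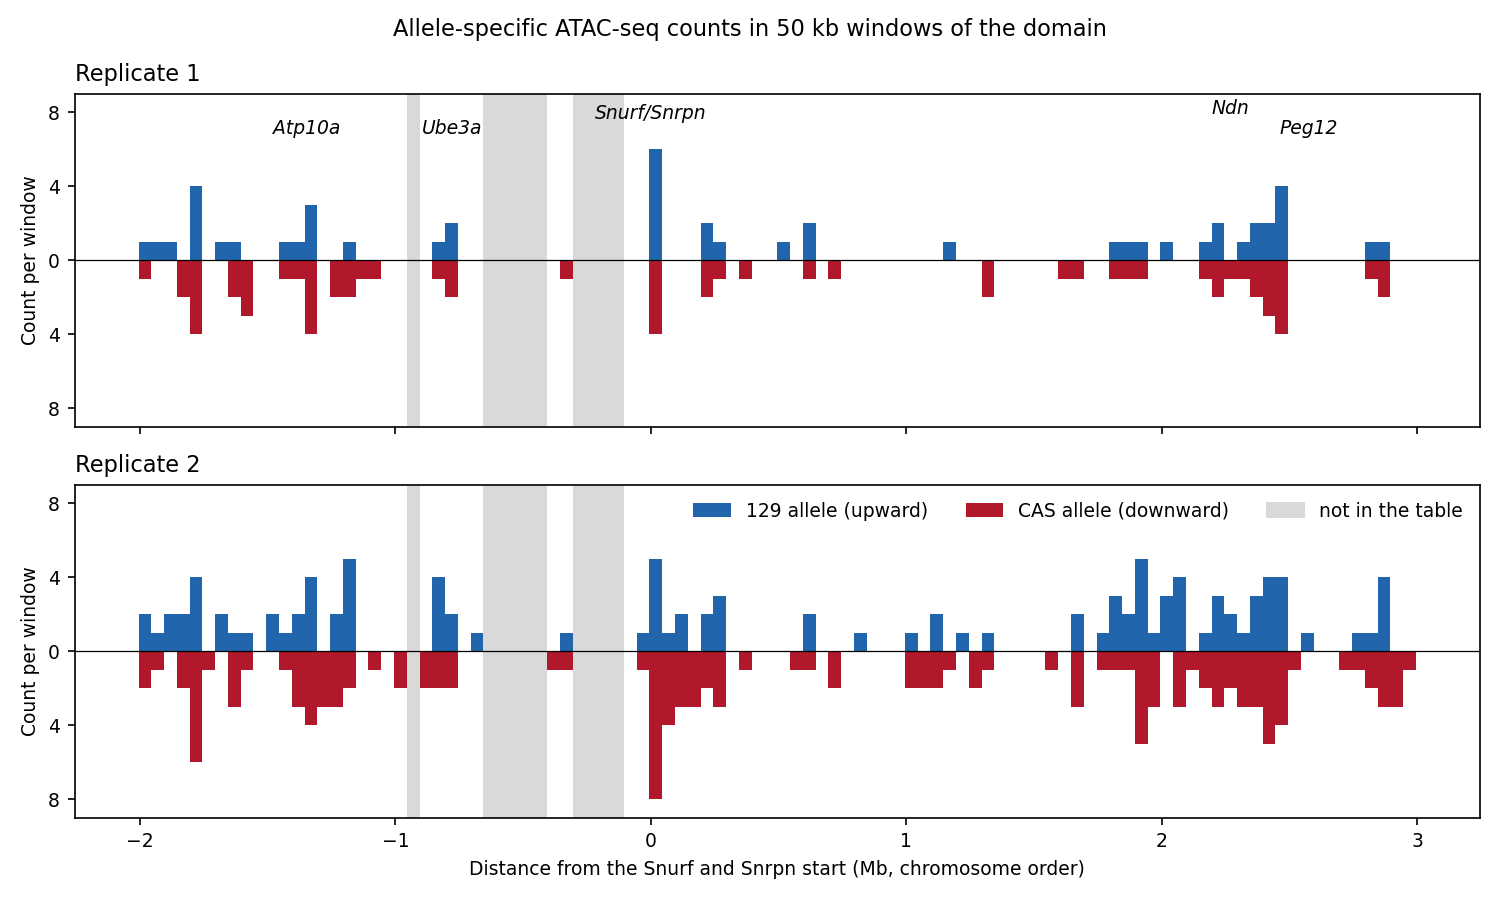
Counts per 50 kb window along the domain, 129 upward and CAS downward, for replicate 1 (top) and replicate 2 (bottom), by distance in Mb from the Snurf and Snrpn start. Grey marks the 10 windows not in the table. The highest window holds that start and the upstream Snrpn start at 60047978, and a second group of counts lies at Ndn to Peg12.

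Of the 5 windows of the domain with the highest counts, 4 held the start of a member (Snurf and Snrpn, Peg12, Atp10a and Mkrn3). The window that holds the Snurf and Snrpn start (60000001 to 60050000) had the highest count of the domain. It also holds the upstream Snrpn start at 60047978, and a count per window does not separate these starts. The 129 allele of this window had 6 counts in replicate 1 and 5 in replicate 2, and its CAS allele 4 and 8. The sum of 23 is reached or passed by 1.23% of all windows in the table. Neither allele was higher in both replicates, since 129 led in replicate 1 and CAS in replicate 2.

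Snurf encodes a small protein from the upstream reading frame of the shared transcript, and Snrpn encodes SmN, a core protein of the splicing machinery. Snurf spans 59982495 to 60005199, in 2 windows, where 129 had 6 counts in both replicates and CAS had 4 in replicate 1 and 9 in replicate 2. Pairs of values below are in this order, replicate 1 and then replicate 2. RefSeq Snrpn reaches the farthest upstream start at 60450177 and overlaps 11 windows, those of Snurf included, where 129 counted 9 and 14 and CAS 8 and 25. Its 129 share, the 129 count over that of both alleles, was 52.9% in replicate 1 (interval 27.8 to 77.0%) and 35.9% in replicate 2 (21.2 to 52.8%), a mean of 44.4% ± 12.1 (SD, n = 2). The groups of values overlap, and Snrpn counts on CAS in replicate 2 stood above the other 3 columns.

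Much of that excess on CAS lay just upstream of the main start. The 3 windows from 60050001 to 60200000, which hold the Snrpn start at 60140225, had 0 counts on either allele in replicate 1. In replicate 2 they had 3 on 129 and 10 on CAS. These windows were singled out after their values were seen, and the difference was present in 1 library only.

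Ndn, Magel2, Mkrn3 and Peg12 lie in 4 adjacent windows between 62300001 and 62500000, with the start of 1 member in each. RefSeq places other entries there too. Gm32061 overlaps the windows of Ndn, Magel2 and Mkrn3, Gm42395 that of Ndn and Atp5l-ps1 that of Peg12. Ndn encodes necdin, a MAGE family protein of neurons. Its window counted 1 and 1 for 129 and 1 and 3 for CAS, the lowest of the 4. Magel2, a MAGE family adaptor of ubiquitin ligases, had 2 and 3 counts on each allele, so its alleles were equal in both replicates.

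Mkrn3, a makorin RING finger protein known for its part in the timing of puberty, counted 2 and 4 for 129 and 3 and 5 for CAS in a window shared with Gm32061. Peg12 (also Frat3), of a family of proteins that bind the kinase GSK3, had 4 counts in each of the 4 columns. Mkrn3 was thus higher on CAS by 1 count in both replicates, and Peg12 was level. Its window was the third highest of the domain, with a sum of 16, and that of Mkrn3 the fifth, with 14.

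Ube3a, the ubiquitin ligase lost in Angelman syndrome, spans 59228750 to 59310837. Over its 3 windows 129 counted 2 and 3, and CAS 2 and 2. All 8 counts of its start window (59200001 to 59250000) were spread evenly, with 2 in each column. The 129 share was 50.0% in replicate 1 (interval 6.76 to 93.2%) and 60.0% in replicate 2 (14.7 to 94.7%), which leaves room for a large difference in either direction.

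Atp10a, a phospholipid flippase gene whose imprinting in the mouse is disputed, spans 58656142 to 58830244 in 4 windows. Here 129 counted 4 and 11, and CAS 8 and 12. CAS was higher in both replicates, with a 129 share of 33.3% (9.92 to 65.1%) and 47.8% (26.8 to 69.4%), a mean of 40.6% ± 10.2 (SD, n = 2). Most of the difference came from the gene body: its start window (58650001 to 58700000) counted 3 and 4 for 129 and 4 and 4 for CAS.

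**Figure D2:**
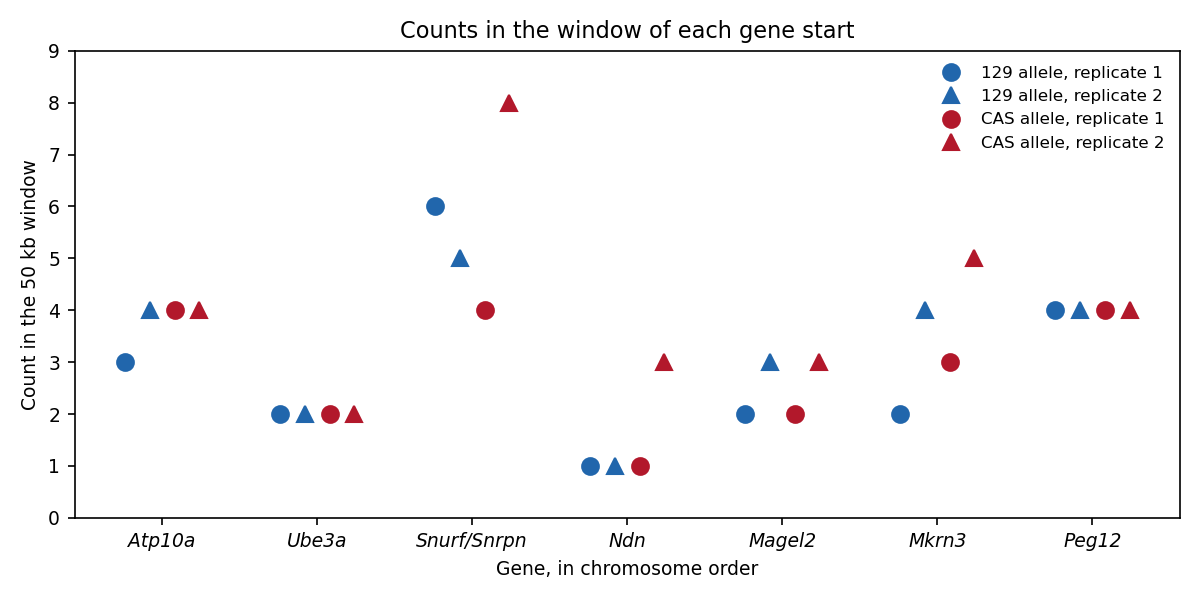
Counts in the 50 kb window that holds each gene start, on a linear axis, with 129 in blue, CAS in red, circles for replicate 1 and triangles for replicate 2. Ube3a and Peg12 have the same count in all 4 columns, and the Snurf and Snrpn window has the highest values, from 4 to 8.

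Of the 8 members, 2 (Atp10a and Mkrn3) were higher on CAS in both replicates and 0 were higher on 129. Among 17070 coding genes with a count, 15.4% were higher on CAS in both and 14.5% on 129. The members' count depended on the windows taken. With windows within 50 kb added, 5 of 8 were higher on CAS, against 20.5% of coding genes counted so, but 4 of these 5 are the neighbours from Ndn to Peg12, which then share windows. In the start windows alone it was 1 of 8, against 11.9% of coding genes with a listed start and a count there. The median 129 share of the members was 47.2%, against 50.0% for all coding genes. The rest of chromosome 7, pooled over its windows rather than taken per gene, had 46.0% in replicate 1 and 46.8% in replicate 2. The median level of the members was 9.38 counts per window over the 4 columns, against 6 for all coding genes. From high to low per window the members ran Peg12 (16), Mkrn3 (14), Snurf (12.5), Magel2 (10), Atp10a (8.75), Ndn (6), Snrpn (5.09) and Ube3a (3.00). Ube3a and Ndn have sums of 9 and 6 counts in all, so these levels are coarse, and no order between neighbours was tested. Snurf lies within Snrpn, so these 2 members are not independent.

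Window by window, 7 of the 90 windows were higher on CAS in both replicates and 4 on 129. Across all windows the shares were 9.87% on CAS and 8.96% on 129, above the 7.78% and 4.44% of the domain, and this difference was not tested. On the rest of chromosome 7, 328 of 2458 windows were higher on CAS in both replicates and 161 on 129. More windows on CAS than on 129 are thus not particular to the domain. In each of the 7 and 4 windows of the domain, the alleles differed by 1 count in at least 1 replicate. Named after their values were seen, those of the members were an Atp10a window (58750001 to 58800000, 0 and 2 on 129 against 2 and 3 on CAS), a Snrpn window (60350001 to 60400000, 0 and 0 against 1 and 1) and the Mkrn3 window. In 0 windows of the domain did an allele lead by 2 or more counts in both replicates, against 1.26% (129) and 1.5% (CAS) of all windows. The second highest window of the domain (58200001 to 58250000) holds no RefSeq gene, and counted 4 and 4 for 129 and 4 and 6 for CAS.

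Equal counts were common. Of the windows with a count, 17 of 42 in replicate 1 and 20 of 68 in replicate 2 had the same count on both alleles. That is 40.5% and 29.4%, against 37.0% and 29.7% over all windows with a count.

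Over the domain as a whole CAS had more counts than 129 in both replicates, a difference that passed no test after adjustment. In replicate 1 the 129 allele had 49 counts and the CAS allele 62, and in replicate 2 they had 107 and 135. The 129 share was 44.1% in replicate 1 and 44.2% in replicate 2, a mean of 44.2% ± 0.0501 (SD, n = 2). Its binomial intervals were 34.7 to 53.9% and 37.9 to 50.7%, and both reached 50%. They are wider than the counting spread seen in the domain. Its variance relative to the binomial was 0.122 in replicate 1 (9 windows) and 0.344 in replicate 2 (28 windows). That the intervals reach 50% therefore does not decide whether the alleles were equal. The rest of chromosome 7 had 46.0% and 46.8%, and all windows 48.8% and 49.9%.

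The domain is exactly 1 segment of a 5 Mb grid that starts at 3 Mb, which allowed a test over all 462 segments. The log2 difference (129 minus CAS) was -0.30 (SE 0.39) and did not pass in edgeR (adjusted p = 0.994). This fit had no term for the replicate. The domain's ratio of replicate 2 to replicate 1, 2.18 against 1.33 over all windows, thus entered its error. In that fit 0 segments were called (0%), with 8 at an unadjusted p under 0.05, while DESeq2 called 1 and limma 0. With the replicate as a block, edgeR called 21 segments (4.55%), and the domain was not among them (log2 difference -0.31, SE 0.08, unadjusted p = 0.0465, adjusted p = 0.209). Of the other segments 47 had a lower mean 129 share and 414 a higher one.

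The domain was also set against its own chromosome. With the column sums of chromosome 7 outside the domain as library sizes, the log2 difference was -0.13 (SE 0.42, edgeR adjusted p = 0.988 over 26 segments). Of these segments edgeR called 0 (0%; 0 at an unadjusted p under 0.05), and with the replicate as a block 1 (3.85%), which was not the domain (log2 difference -0.14, adjusted p = 0.692). A lower mean 129 share was found in 6 of the 25 other segments of the chromosome. A p that misses the threshold does not show that the alleles were equal. Per replicate, the log2 ratio to the rest of the chromosome was -0.11 and -0.15.

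Smaller pieces gave no call either. By 1 Mb, the 129 and CAS counts from 58 Mb on were 15 and 24, 3 and 4, 12 and 10, 4 and 7, and 15 and 17 in replicate 1. In replicate 2 they were 31 and 33, 9 and 11, 16 and 28, 19 and 25, and 32 and 38. The bin with the Snurf and Snrpn start was the only one of the 5 that was higher on 129 in replicate 1, and all 5 were higher on CAS in replicate 2. edgeR tested 4 of the 5 bins and passed 0 of them (0 also without adjustment at 0.05), with log2 differences from -0.44 to -0.19 (smallest adjusted p = 0.997). Over the table it called 0 of 2095 bins (0%; 50 at an unadjusted p under 0.05), and 7 (0.334%) with the replicate as a block, where the domain's smallest adjusted p was 0.890. DESeq2 and limma called 0 bins in the table. Of the domain's windows 71 had a count, and in edgeR 0 passed, while 3 had an unadjusted p under 0.05. For the whole table the edgeR figures were 0 of 34417 windows (0%) and 910. DESeq2 and limma also called 0 windows of the domain, with 0 and 9 at an unadjusted p under 0.05. In the table DESeq2 called 0 windows, with 14 at that unadjusted p, and limma called 78, with 2786.

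The level of counts varied along the domain. These are counts assigned to an allele, and the part of strain variants per window, or of how well reads can be placed there, was not tested. The 4 windows of Ndn to Peg12 had a mean of 4.75 counts (both alleles) in replicate 1 and 6.75 in replicate 2, which is 2.32 and 2.48 times the mean of all windows in the same replicate. None of them was at 0. The 36 windows between the farthest upstream start of Snrpn and Ndn, where RefSeq lists no coding gene but Gm51483, had means of 0.667 and 2.08, or 0.325 and 0.764 times the mean. Of these 36 windows 10 were at 0 in all 4 columns.

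The other stretches had lower means than Ndn to Peg12 as well. Atp10a to Ube3a had 1.54 and 3.00 counts per window, Snurf and Snrpn 1.55 and 3.55, and the windows before Atp10a 1.92 and 3.08. After Peg12 the means were 0.500 and 1.90. These levels are descriptions with no test. Over the whole domain 19 of 90 windows (21.1%) were at 0 in all columns, near the 21.7% of all windows. Windows with a sum of 10 or more made up 10 of 90 (11.1%), against 14.9% of all windows.

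**Figure D3:**
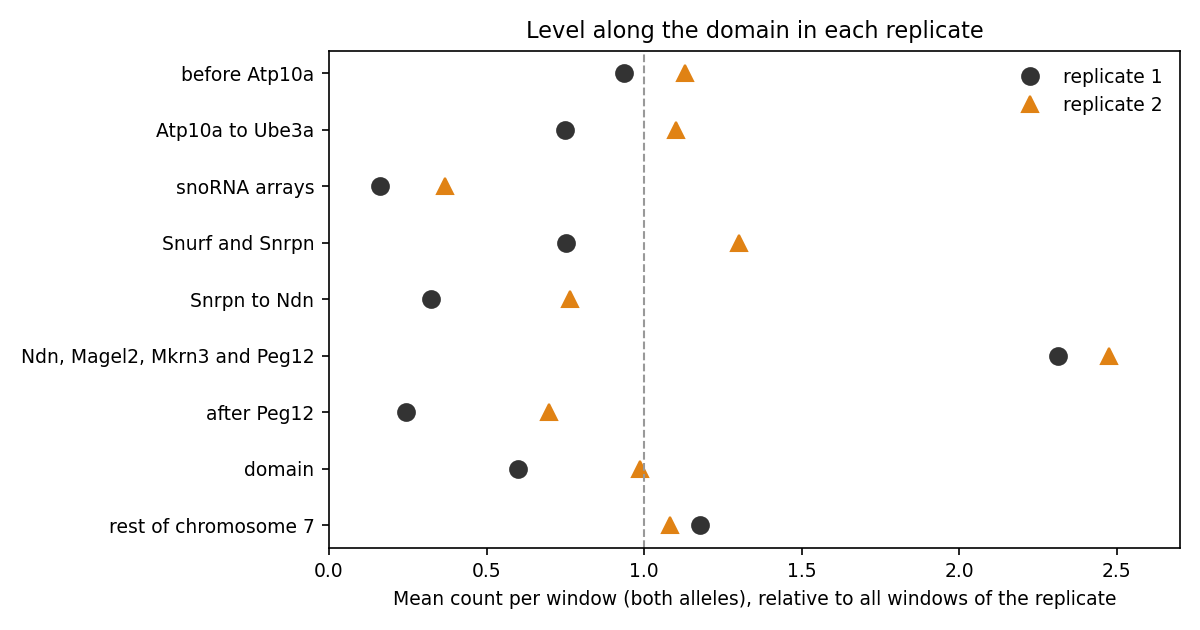
Mean count per window (both alleles) in each stretch of the domain, divided by the mean of all windows of the same replicate, with circles for replicate 1, triangles for replicate 2 and a dashed line at the mean of all windows. Ndn to Peg12 lies above 2 in both replicates, and each of the 7 stretches has a higher value in replicate 2 than in replicate 1. The last rows give the whole domain and the rest of chromosome 7.

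The small nucleolar RNA arrays were largely outside the table. On the 50 kb grid 10 windows of the domain are not in the table, and 9 of them lie in the 12 grid windows between 59350001 and 59950000. RefSeq places 179 of the domain's 209 small nucleolar RNA genes in windows that were not analysed here. The 3 windows of this stretch that are in the table counted 0 and 1 for 129 and 1 and 2 for CAS. The 17 RefSeq entries with a symbol that begins with Snord116 lie in 2 grid windows. Of these 1 was in the table, and it was at 0 in all 4 columns. Small nucleolar RNA genes under other symbols, such as Gm26433, lie in the same stretch, so the extent of this array rests on symbols. Ipw, a non-coding RNA between the arrays, holds 2 of the 3 windows named above and all of their counts.

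Other transcripts of the domain held few counts. Snhg14, the host transcript of the arrays, overlaps Snrpn and Ube3a and 16 windows of the table, so most of its counts (9 and 16 on 129, 9 and 27 on CAS) are those of Snrpn. In the stretch before Ndn, A230057D06Rik counted 3 and 11 for 129 and 3 and 8 for CAS. A230006K03Rik counted 1 and 5 for 129 and 2 and 10 for CAS. Of 7 listed transcripts 5 were placed by symbol and 4 had a count, at most 5 per window over the 4 columns. CAS was higher in both replicates in 2, Ipw (0 against 1 and 1 against 2) and A230006K03Rik, and 129 in 0, where all coding genes have the 15.4% and 14.5% given above.

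The replicates differed in level over the domain, and the alleles did so alike. The mean count per window (both alleles) was 1.23 in replicate 1 and 2.69 in replicate 2. The ratio was 2.18, and it was also 2.18 for either allele alone. Over all windows the ratio was 1.33. Relative to all windows of the same replicate the domain was thus at 0.601 in replicate 1 and at 0.986 in replicate 2 (mean 0.794 ± 0.272, SD, n = 2). A count in replicate 2 with none in replicate 1 was seen in 29 of 90 windows (32.2%), against 15.9% of all windows, and the opposite in 3 (3.33%, against 3.86%).

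Among the 26 segments of chromosome 7 the domain had the lowest level in replicate 1 and the highest ratio of replicate 2 to replicate 1. Over all 462 segments 22 had a higher ratio, and the median was 1.27. The domain has 10 coding genes, against a median of 31 per segment. Of the 48 segments with 10 or fewer coding genes, itself included, 15 had a higher ratio and 32 a lower one, with a median of 2.09. The part of gene content, or of either library's quality, in this ratio was not tested. Within the domain the ratio was 1.42 in the windows of Ndn to Peg12, 3.12 in the stretch before Ndn and 3.80 after Peg12.

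**Figure D4:**
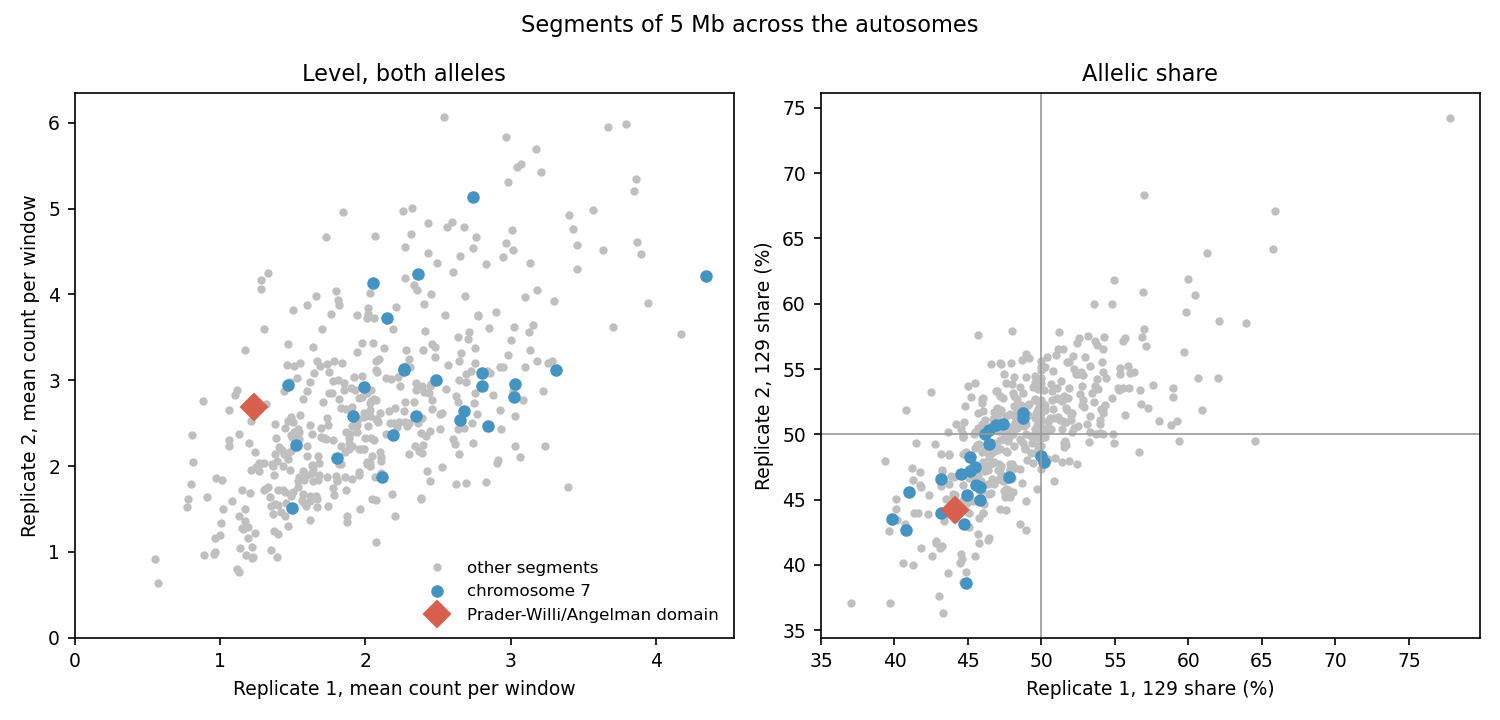
Each point is a 5 Mb segment: left, mean count per window (both alleles) in replicate 1 and replicate 2; right, 129 share in percent in both replicates. The domain (diamond) is the lowest segment of chromosome 7 (blue) in replicate 1 with 1.23, near the middle in replicate 2 with 2.69, and its share is 44.1% and 44.2%.

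The 3 segments nearest to the domain in level, by the distance of log2 (mean count per window + 0.1) over the 4 columns, were on chromosomes 3, 4 and 1. The nearest (chromosome 3, 73000001 to 78000000, distance 0.192) holds 10 coding genes, among them Slitrk3 and Fstl5, and had 129 shares of 46.2% and 47.4%. The next (chromosome 4, 78000001 to 83000000, distance 0.350), with Ptprd and Nfib, had 45.0% and 44.7%. The third (chromosome 1, 98000001 to 103000000, distance 0.365), with Pam and Cntnap5b, had 48.2% and 50.9%. Their counts are of 2 libraries shared with the domain, and no difference between them was tested.

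Genes on either side of the domain were counted in the same way. All 20 had a count, with a median of 7.75 per window over the 4 columns and a median 129 share of 48.7%. CAS was higher in both replicates in 3 of the 20 (Otud7a, Klf13 and Mtmr10) and 129 in 2 (Apba2 and Tjp1). Among all coding genes with a count the shares were 15.4% on CAS and 14.5% on 129, so these numbers are near or below that background. Mtmr10, Apba2 and Tjp1 are named after their values were seen. Otud7a, a deubiquitinase gene, counted 11 and 13 for 129 and 15 and 17 for CAS in 8 windows. Gabrg3, which encodes a subunit of the GABA-A receptor, counted 8 and 17 for 129 and 8 and 20 for CAS in 14 windows. Klf13, a Krüppel-like transcription factor gene, counted 10 and 11 for 129 and 14 and 12 for CAS in 2 windows, the highest level of the list at 23.5 counts per window.

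Other genes near a germline imprint on the maternal copy were counted too. Of 16 with a count, 6 were higher on 129 in both replicates and 2 on CAS, with a median 129 share of 56.3%, against the background of 14.5% and 15.4% given above. Among those with the highest counts, Usp29 counted 12 and 10 for 129 and 8 and 9 for CAS, and the signalling adaptor gene Grb10 8 and 8 against 4 and 4. H13, a signal peptide peptidase gene, had 9 and 6 against 8 and 7. The members had 0 of 8 on 129 and this list 6 of 16, and that difference was not tested. Genes of this list are not independent either: Mcts2 lies within H13, Peg3 shares a window with Usp29, and Peg10 shares a window with Sgce.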

How the data were processed

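ATAC-seq counts of 2 replicates of the hybrid embryonic stem cell line F121-6 were used. The authors deposited whole-number counts per 50 kb window, with 1 column per allele and replicate and 0 further per-sample columns. Per the submitters' processing notes the tools were bedtools, SAMtools, MACS2 and Bowtie2, with no roles given, and the build was mm10. What is counted, and how an allele was assigned, is not given in the sources used here. Column totals were 44026 and 46128 (129 and CAS, replicate 1) and 59812 and 59995 (replicate 2). Between alleles the counts varied less than independent reads would, with a variance of 0.333 (replicate 1) and 0.465 (replicate 2) relative to the binomial at 4 or more counts. Binomial intervals (exact Clopper-Pearson, 95%) are therefore wider than the counting spread seen, and they do not cover differences between replicates.

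Windows were joined to RefSeq genes of GRCm38.p6, the primary sequence of which is mm10, if any base was shared. Alleles were compared with edgeR 4.0.16 (quasi-likelihood test, TMM, Benjamini-Hochberg adjustment, threshold 0.05) over the whole table, as 5 Mb segments with at least 50 windows, as 1 Mb bins (filterByExpr, minimum count 10) and as windows with at least 1 count. SEs of edgeR values were derived from the F statistic. Tested on simulated data, the fits recovered most known changes in segments and bins. In single windows they recovered a minority, and none with the replicate as a block. The simulated counts were independent between columns, with 1 mean per row scaled only by column totals. They held no replicate difference of single rows, such as that of the domain, and not the smaller spread between alleles seen here. Recovery in counts like the deposited ones was therefore not tested. Recovery of a difference as small as that of the domain (log2 -0.30) was not tested. Nor was it tested at the domain's level, 3.92 counts per window over all columns, below the segment median of 4.64. Because each library holds both alleles, columns are paired by replicate. The main fits did not use this pairing, and the replicate block was an alternative. Across windows the paired deviations had a correlation of 0.334. Nothing says that the replicates were separate cultures, so p-values measure the spread between these libraries, which may be technical. DESeq2 1.42.0 (Wald test) and limma 3.58.1 (square root of the count plus 0.375, columns centred) served as alternatives.

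Members and gene lists were chosen with earlier results of these data known. The text names the 8 members, the 5 windows of the domain with the highest counts, and the genes with the highest counts of each comparison list. The rule also named windows with a difference of 2 or more in the same direction in both replicates, which 0 windows met. Windows named for a smaller difference were chosen after their values were seen. The level of each replicate relative to all windows and the letters searched for in promoters were chosen after seeing the data.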

Additional observations from a re-analysis of the deposited data

How the results depend on the processing

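The CAS-side difference of the domain kept its sign and stayed short of the threshold in all alternatives run. These were limma, the DESeq2 Wald test, size factors by DESeq2, a library size common to both alleles, a threshold of 0.1, the members' stretch alone, leaving out the highest window and the replicate block. The log2 difference ran from -0.33 to -0.27 (limma, on the square root scale, -0.96) and adjusted p from 0.209 to 1. With the replicate block it was -0.31 (edgeR adjusted p = 0.209). Without replicate 1 or 2 it was -0.33 and -0.27, and against the rest of chromosome 7 -0.15 and -0.11, with no test. Library sizes from 43 to 78 Mb of chromosome 7 gave -0.07. The block changed no call in the domain. Over the table it raised the calls from 0 to 21 segments and from 0 to 7 bins, DESeq2 called 1 segment, the common library size 1 window, and limma 78 windows. The number of members higher on CAS in both replicates moved from 2 to 5 with windows within 50 kb and to 1 in start windows. The relative level, an alternative chosen after seeing the data, was 0.986 without replicate 1 and 0.601 without replicate 2. The standard count filter left 0 windows of the domain, and 1 replicate alone leaves no test for bins or windows, so neither gave a value. Counts of 0 to 8 per window limit every allelic share of a single gene.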

Other observations

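The gene-poor stretch before Ndn carries the family of mmu-miR-344-5p, a microRNA, which RefSeq lists there as 13 hairpins with 19 mature names in 9 windows. These windows had 4 counts on each allele in replicate 1, and 21 on 129 and 17 on CAS in replicate 2, with sums from 0 to 12. The window with 12 (61900001 to 61950000) holds Mir344-2 and had 1 and 5 counts on each allele, so its alleles were equal in both replicates. The Mir344f window (62000001 to 62050000) had 1 and 3 counts on 129 and 0 on CAS.

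Among the mature names RefSeq gives (GRCm38.p6), the seed (bases 2 to 8, in capitals) GUCAGGC was common to 6, the most of any seed, and the lines show 1 of them, the other arm of its hairpin, and the arm that 3 hairpin copies share.
mmu-miR-344-5p: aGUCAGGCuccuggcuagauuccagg
mmu-miR-344-3p: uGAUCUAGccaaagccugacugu
mmu-miR-344d-3p: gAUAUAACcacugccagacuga
The windows of the mmu-miR-344d-3p hairpins, Mir344e, both Mir344h copies and Mir344b (61650001 to 61800000) had sums of 6, 0 and 2. These are levels at windows of 50 kb, and none was tested.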
